A study of Mus musculus with 38 samples.

Results

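The interferon-inducible p200 family is a cluster of related mouse genes on chromosome 1. Its 10 members described here are Aim2, Ifi203, Ifi204, Ifi205, Ifi207, Ifi208, Ifi209, Ifi211, Ifi213 and Mndal. They were chosen by gene symbol, and all 10 are among the 11184 genes of the RNA table. All 10 also passed the expression minimum of at least 1 RPKM (reads per kilobase of gene and per M reads, in the authors' scaling) in at least 4 libraries, as did 9942 genes in all.

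The cells were primary macrophages grown from bone marrow of C57BL/6 mice. They were stimulated with bacterial lipopolysaccharide (LPS, 5 ng/ml) together with interferon-gamma (IFNg, 12 ng/ml), which drives macrophages toward the inflammatory M1 state. RNA was taken at 4, 8, 16 and 24 h of stimulation and from cells at 0 h. A further arm received lactic acid at 4 h of stimulation, at a dose the labels do not give, and gave RNA at 8, 16 and 24 h. Its groups are LA 8h, LA 16h and LA 24h. They share LPS and IFNg with the groups they are set against, 8h, 16h and 24h. Each of the 8 RNA groups held 4 libraries. Chromatin immunoprecipitation with sequencing (ChIP-seq) of histone H3 lactylated at lysine 18 (H3K18la) and acetylated at the same lysine (H3K18ac) was done in M1 cells, stimulated for 24 h, and in unstimulated M0 cells, with 1 library per mark and state. The labels do not say whether the 4 RNA libraries of a group came from separate mice or cultures, so p-values reflect library-to-library spread, which may be technical.

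Proteins of the p200 family usually join a pyrin domain, which binds other pyrin domains, to a HIN-200 domain, which binds DNA. AIM2 senses DNA in the cytosol and assembles an inflammasome with the adaptor ASC (gene Pycard) and caspase-1, which matures interleukin-1 and interleukin-18. The Ifi genes and Mndal are classical targets of interferons, whose signal reaches genes through interferon-stimulated response elements, which IRF proteins can bind, and through gamma-activated sites.

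The promoter sequences show how closely the members resemble each other and where the interferon motif lies in them. The RefSeq promoter table (build GRCm38.p6) gives 250 bases before and 50 bases after each start, and holds 9 of the 10 members; Ifi204 is the other. Both strands were searched for the core of the interferon-stimulated response element, GAAANNGAAA (TTTCNNTTTC on the other strand), and for the core of the gamma-activated site, TTCNNNGAA, which reads the same on both strands. The first was found in 7 of the 9 members and in 3.44% of all 32851 promoters of the table. The second was found in 0 of the 9 members and in 8.3% of all promoters, so no member held overlapping matches of both. A member was counted if any of its starts had a match, while the percentages are per promoter. Mndal and Ifi203 have 2 starts each, and the Ifi203 start at chr1:173942672 held no match. A match is a run of letters, not a shown binding site, and its absence says only that the letters are not in these windows. The stretches of 50 bases around the match in each of the 7 members are shown 5′ to 3′ on the gene's strand, with the matched letters in capitals.
Ifi213, chr1:173599316-173599365, minus strand: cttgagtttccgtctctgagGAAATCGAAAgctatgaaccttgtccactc
Ifi208, chr1:173673587-173673636, plus strand: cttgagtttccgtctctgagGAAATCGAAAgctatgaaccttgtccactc
Mndal, chr1:173880194-173880243, minus strand: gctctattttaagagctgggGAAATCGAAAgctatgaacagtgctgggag
Ifi203, chr1:173942498-173942547, minus strand: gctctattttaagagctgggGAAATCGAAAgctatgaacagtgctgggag
Ifi207, chr1:173741821-173741870, minus strand: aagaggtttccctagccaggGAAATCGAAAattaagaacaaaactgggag
Ifi211, chr1:173913054-173913103, minus strand: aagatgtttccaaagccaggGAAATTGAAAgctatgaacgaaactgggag
Ifi205, chr1:174031860-174031909, minus strand: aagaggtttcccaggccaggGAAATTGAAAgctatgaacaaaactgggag

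The stretches of Ifi213 and Ifi208 were identical in 50 of 50 bases, as were those of Mndal and Ifi203. Those of Ifi211 and Ifi205 shared 46 of 50 bases. The match began between 35 and 134 bases before the start, and of the stretches shown only that of Ifi205 lay farther than 73 bases away. Ifi205 held a further match 24 bases after its start, and Mndal one 54 bases before its other start. Over the whole 300 bases, the Ifi213 and Ifi208 promoters were 89.5% identical, and those of Ifi207 and Ifi211 85.9%.

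Ifi209 and Aim2 held no match. The only Aim2 start in the table, chr1:173420604, lies inside the span of the gene (chr1:173349547-173466040). The upstream end of that span was not searched. In Ifi209, the 50 bases that line up without gaps with the matching stretch of Ifi214, another gene of the cluster, shared 45 of 50 bases with it. Within the motif they differed by G1T, counted from 1 at the first capital base, with the base of Ifi214 first. The Ifi209 and Ifi214 promoters were 95.3% identical over their whole length. The capitals mark the same 10 positions in both.
Ifi209, chr1:173630760-173630809, plus strand: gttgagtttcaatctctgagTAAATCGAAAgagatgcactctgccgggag
Ifi214, chr1:173536007-173536056, minus strand: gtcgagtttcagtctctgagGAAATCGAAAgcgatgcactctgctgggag

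The whole promoters of Ifi205, which had the highest fold change of the family, and of Aim2, whose promoter was 46.9% to 53.9% identical to those of the other genes of the cluster in the table, are shown with the motif in capitals where it occurs.
Ifi205, chr1:174031706-174032005, minus strand: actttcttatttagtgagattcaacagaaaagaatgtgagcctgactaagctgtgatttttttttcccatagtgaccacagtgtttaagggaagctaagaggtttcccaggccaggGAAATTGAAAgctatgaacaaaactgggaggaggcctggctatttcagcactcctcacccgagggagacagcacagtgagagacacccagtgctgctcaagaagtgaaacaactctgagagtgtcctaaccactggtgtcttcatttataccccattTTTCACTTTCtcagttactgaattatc
Aim2, chr1:173420354-173420653, plus strand: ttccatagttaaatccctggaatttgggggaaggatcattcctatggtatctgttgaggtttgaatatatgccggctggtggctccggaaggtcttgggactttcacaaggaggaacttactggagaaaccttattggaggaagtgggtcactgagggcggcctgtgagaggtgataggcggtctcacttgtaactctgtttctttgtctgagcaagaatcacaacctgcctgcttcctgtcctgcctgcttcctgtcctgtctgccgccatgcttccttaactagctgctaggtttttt

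The likeness shown is of promoters, and transcripts were not compared here. The RNA values are the authors' own counts turned into RPKM, and the handling of reads that match several places is not given in the sources used here. How far related members of the cluster share reads was not tested, and their single-gene values are uncertain to that extent.

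All 10 members rose within 4 h of LPS and IFNg. Of all 9942 tested genes, 42.5% rose and 42.7% fell in the same comparison (limma on log2(RPKM + 1), Benjamini-Hochberg adjusted p under 0.05 over all tested genes). The members' median log2 fold change was 3.08, with a range of 1.54 to 6.44, while the median over all tested genes was 0.00. In all 10 every 4h library lay above every 0h library, as in 42.6% of all tested genes. Dividing each library by its sum of reads over the table's genes, called table scaling below, moved the median of all genes to -0.43 and the share of called genes that were higher to 26.9%, against 49.9% as deposited, and all 10 members were still higher. In bulk RNA, fewer cells of a type and less RNA per cell cannot be told apart.

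**Figure D1:**
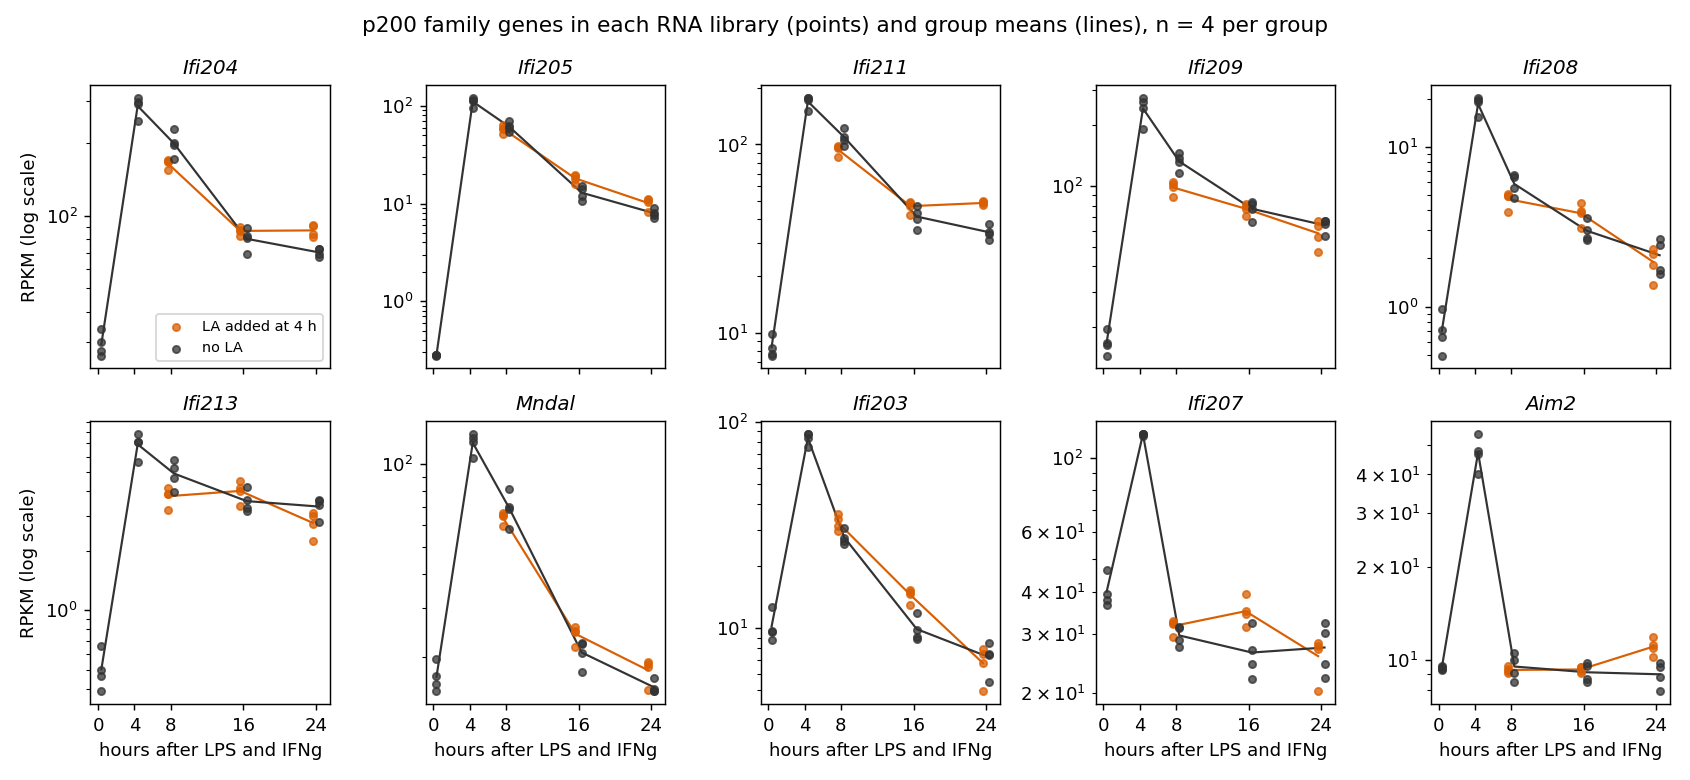
RPKM of each p200 gene in each library (points, log axis) against hours after LPS and IFNg, with group means as lines, for the lactic acid arm (orange) and without lactic acid (grey), n = 4 per group. Every gene is highest at 4 h, and Aim2 is back at 8.51 to 10.5 RPKM by 8 h.

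Ifi205, whose protein has been linked in mouse macrophages to the expression of the ASC gene, changed most. Its RPKM was 94.8, 121, 115 and 112 in the 4h libraries, against 0.282, 0.285, 0.278 and 0.285 in the 0h libraries. It was almost silent at 0h, with 98 to 108 reads per library, and among the well expressed genes of the family at 4h. The mean was 392 times higher at 4h, and the log2 fold change was 6.44 ± 0.10 (SE, adjusted p = 4.8e-32 by limma), a scale that understates changes of genes near 0.

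Ifi204, a DNA-binding member that works with STING in mouse macrophages, was the most abundant at 4h. It had 246, 308, 297 and 289 RPKM at 4h, against 26.3, 29.8, 33.8 and 27.5 RPKM at 0h. The lowest 4h library lay far above the highest 0h library, and the log2 fold change was 3.24 ± 0.08 (SE, adjusted p = 3.7e-26 by limma). Ifi209 came next in abundance, with 191, 273, 260 and 244 RPKM at 4h, against 14.5, 16.7, 19.6 and 16.4 RPKM at 0h. Ifi211 followed, with 151, 177, 176 and 173 RPKM at 4h, against 7.55, 8.32, 9.84 and 7.72 RPKM at 0h. Their ranges at 4h did not overlap each other, while Ifi209 and Ifi204 did overlap. The log2 fold changes were 3.77 ± 0.11 for Ifi209 and 4.19 ± 0.08 for Ifi211 (SE).

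Mndal and Ifi203, which share their promoter stretch, rose to similar extents. Mndal averaged 120.0 ± 10.1 RPKM at 4h and 16.9 ± 1.99 RPKM at 0h (SD, n = 4 each). Ifi203 averaged 83.4 ± 5.67 RPKM at 4h and 10.2 ± 1.70 RPKM at 0h. Their log2 fold changes were 2.75 ± 0.09 and 2.93 ± 0.11 (SE), in that order. The other identical pair, Ifi208 and Ifi213, was low throughout. Ifi208 had 15.3, 20.2, 19.5 and 19.0 RPKM at 4h, against 0.494, 0.641, 0.960 and 0.710 RPKM at 0h. Ifi213 had 5.65, 7.85, 7.12 and 7.09 RPKM at 4h, against 0.388, 0.462, 0.662 and 0.495 RPKM at 0h. The means were 26.3 and 13.8 times higher at 4h, in that order.

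Ifi207 had the highest level of the family before stimulation and the smallest change. It had 118, 116, 118 and 118 RPKM at 4h, against 36.4, 37.8, 46.4 and 39.3 RPKM at 0h. The groups were apart, with a log2 fold change of 1.54 ± 0.11 (SE, adjusted p = 1.6e-14 by limma). Aim2, the inflammasome sensor, had 40.0, 54.3, 47.7 and 46.5 RPKM at 4h, against 9.52, 9.29, 9.33 and 9.56 RPKM at 0h. Its mean was 5.0 times higher at 4h, and the log2 fold change was 2.20 ± 0.07 (SE, adjusted p = 1.6e-23 by limma).

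The order of the levels therefore differed between the times. At 0h it ran from Ifi207 (mean 40.0 RPKM) and Ifi204 (29.4) through Mndal (16.9), Ifi209 (16.8), Ifi203 (10.2), Aim2 (9.43) and Ifi211 (8.36) to Ifi208 (0.701), Ifi213 (0.502) and Ifi205 (0.283). Mndal and Ifi209 overlapped each other at 0h, as did Ifi203, Aim2 and Ifi211, and as did Ifi208 and Ifi213. Ifi205, the lowest at 0h, stood sixth at 4h with a mean of 111 RPKM. Its 4h range overlapped those of Mndal (105 to 129 RPKM) and Ifi207 (116 to 118 RPKM).

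After 4h all 10 members declined, at different speeds. At 8h all 10 were lower than at 4h, where 36.9% of all tested genes were lower, and the members' median log2 fold change was -0.85, against -0.02 over all tested genes. Ifi213 was the only one of them whose 8h and 4h libraries overlapped, while every 8h library lay below every 4h library in 37.0% of all tested genes. Aim2 and Ifi207 fell most in relation to their 4h level. Aim2 had 9.08, 8.51, 10.5 and 10.0 RPKM at 8h, a range that holds all 4 values of the 0h group, and its log2 fold change from 4h was -2.19 ± 0.07 (SE, adjusted p = 9.1e-23 by limma). Its 8h mean was 20.2% of the 4h mean. Ifi207 had 31.1, 28.8, 31.3 and 27.3 RPKM at 8h, all below its lowest 0h library. Its 8h mean was 25.2% of its 4h mean.

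Ifi213, Ifi204 and Ifi211 kept more. Their 8h means were 71.2%, 69.9% and 64.7% of their 4h means, in that order. Mndal kept 58.0%, Ifi205 55.4% and Ifi209 54.7%. Ifi203 kept 33.1% and Ifi208 31.6%, so that each pair with an identical promoter stretch held 1 faster and 1 slower gene (Ifi203 against Mndal, and Ifi208 against Ifi213). These shares are descriptions of group means, and their differences between genes were not tested.

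**Figure D2:**
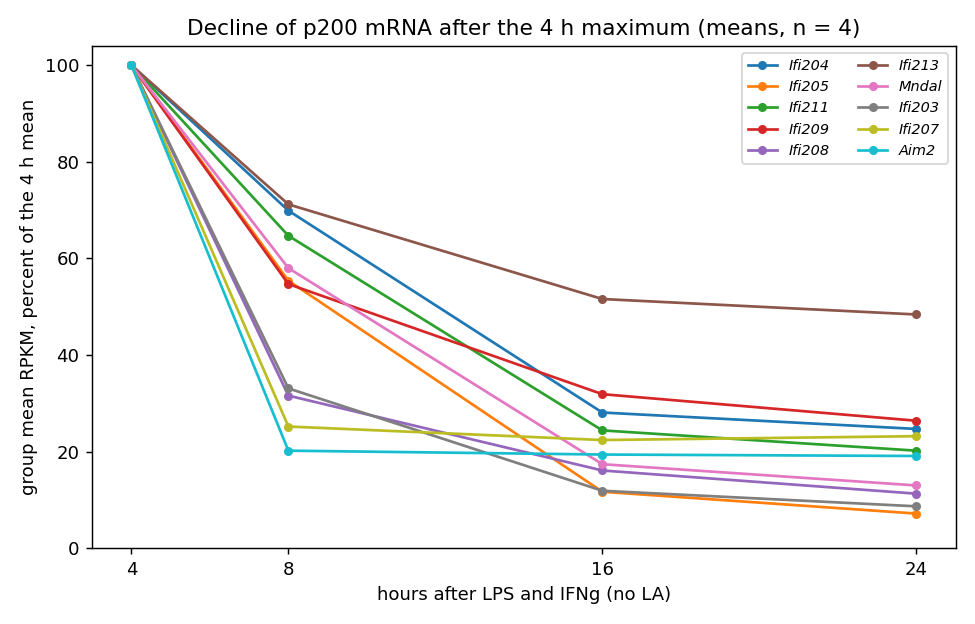
Group mean RPKM at 4, 8, 16 and 24 h without lactic acid, as a percent of the gene's own 4 h mean (n = 4 per group). Aim2 and Ifi207 drop to 20.2% and 25.2% by 8 h and then level off, Ifi205 declines until 24 h, and Ifi213 stays highest with 48.4% at 24 h.

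At 16h, 8 of the 10 members were lower than at 8h, where 34.2% of all tested genes were lower. The members' median log2 fold change was -1.04, against 0.01 over all tested genes. Ifi205 fell furthest, to 10.7, 11.9, 14.1 and 15.0 RPKM at 16h, against 61.7, 54.7, 70.0 and 59.1 RPKM at 8h. No library of the first group came near the second, and the log2 fold change was -2.17 ± 0.10 (SE, adjusted p = 8.7e-19 by limma). The members that did not pass were Aim2 (-0.06 ± 0.07, adjusted p = 0.49) and Ifi207 (-0.18 ± 0.11, adjusted p = 0.14), the 2 that had already fallen most by 8h. Without 16h replicate 4, Ifi207 passed (adjusted p = 0.024).

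Between 24h and 16h the changes were small. Lower at 24h were 6 of 10 members (Ifi203, Ifi205, Ifi208, Ifi209, Ifi211 and Mndal), and 23.3% of all tested genes. The members' log2 fold changes ran from -0.63 to 0.05. Every 24h library lay below every 16h library for 3 of 10 members (Ifi203, Ifi205 and Mndal), and for 15.6% of all tested genes. With only these 2 groups in the fit, Ifi209 and Ifi211 no longer passed (adjusted p = 0.059 and 0.067). Leaving out 1 library also ended the call of Ifi209 (16h replicates 2, 3 and 4, and 24h replicates 2 and 4), of Ifi208 (16h replicate 4, 24h replicate 4) and of Ifi211 (16h replicate 3), and made one of Ifi204 (16h replicate 1). The count ranged from 4 to 7 over these fits. Under table scaling 7 members were lower, and 33.1% of called genes were higher, against 50.9% as deposited.

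A day of stimulation left the family in 3 states relative to 0h. At 24h, 6 members were higher than at 0h (39.9% of all tested genes were higher), 2 were lower (37.3% of all tested genes were lower) and 2 did not pass in either direction. The median log2 fold change of the members was 1.04, against 0.02 over all tested genes.

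Still raised were Ifi204, Ifi205, Ifi208, Ifi209, Ifi211 and Ifi213. Ifi205 had 8.95, 7.16, 8.05 and 7.68 RPKM at 24h, against 0.278 to 0.285 RPKM at 0h. It was 28.2 times higher at 24h by the means, with a log2 fold change of 2.80 ± 0.10 (SE, adjusted p = 4.2e-22 by limma), although only 7.18% of its 4h mean was left. Ifi211 had 37.7, 31.0, 33.5 and 34.3 RPKM at 24h, against 7.55 to 9.84 RPKM at 0h (log2 fold change 1.91 ± 0.08, SE). Ifi209 had 67.1, 64.8, 67.2 and 56.7 RPKM at 24h, against 14.5 to 19.6 RPKM at 0h (1.87 ± 0.11). In each of these 3 genes the groups were well apart. The other 3 had log2 fold changes of 1.53 (Ifi213), 1.24 (Ifi204) and 0.85 (Ifi208). Ifi213 and Ifi208 lay near 0 at 0h, where this scale understates changes. By the means, Ifi213 was 6.68 times higher at 24h, Ifi211 4.08, Ifi209 3.81, Ifi208 2.99 and Ifi204 2.4 times.

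Ifi203 and Ifi207 were lower at 24h than before stimulation. Ifi203 had 7.54, 7.41, 8.50 and 5.49 RPKM at 24h, against 8.78, 9.65, 12.7 and 9.60 RPKM at 0h. Ifi207 had 30.2, 24.4, 32.3 and 22.2 RPKM at 24h, against 36.4, 37.8, 46.4 and 39.3 RPKM at 0h. Neither pair of groups overlapped, and the log2 fold changes were -0.44 ± 0.11 and -0.54 ± 0.11 (SE, adjusted p = 0.00090 and 3.5e-05 by limma), in that order.

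Aim2 and Mndal lay near their 0h levels. Aim2 had 9.48, 9.75, 8.80 and 7.91 RPKM at 24h, against 9.29 to 9.56 RPKM at 0h. Mndal had 16.7, 15.0, 15.3 and 15.0 RPKM at 24h, against 15.1 to 19.6 RPKM at 0h. Their groups overlapped, and the log2 fold changes were -0.07 ± 0.07 and -0.11 ± 0.09 (SE, adjusted p = 0.39 and 0.24), in that order. Here the scaling mattered. Under table scaling the median over all genes was -0.37 and 20.4% of called genes were higher, against 51.6% as deposited. Aim2 (-0.51) and Mndal (-0.57) then counted as lower as well, with -0.14 and -0.20 relative to that median, while the 6 raised members and the 2 lower ones kept their calls.

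Lactic acid changed the members by little and not in one direction. Its effects on single members lay between -0.42 and 0.51 on the log2 scale. The groups with and without lactic acid did not overlap in 2 of 10 members at 8 h, 2 at 16 h and 3 at 24 h. The share of all tested genes without overlap was not computed for these comparisons, nor for 16h against 8h and 24h against 0h. For every count of 0 members in one direction given here, limma at an unadjusted p under 0.05 also gave 0, except for 1 lower member at LA 24h against 24h (Ifi213, -0.21). By edgeR on the recovered whole reads these counts were 0 as well, adjusted or not.

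**Figure D3:**
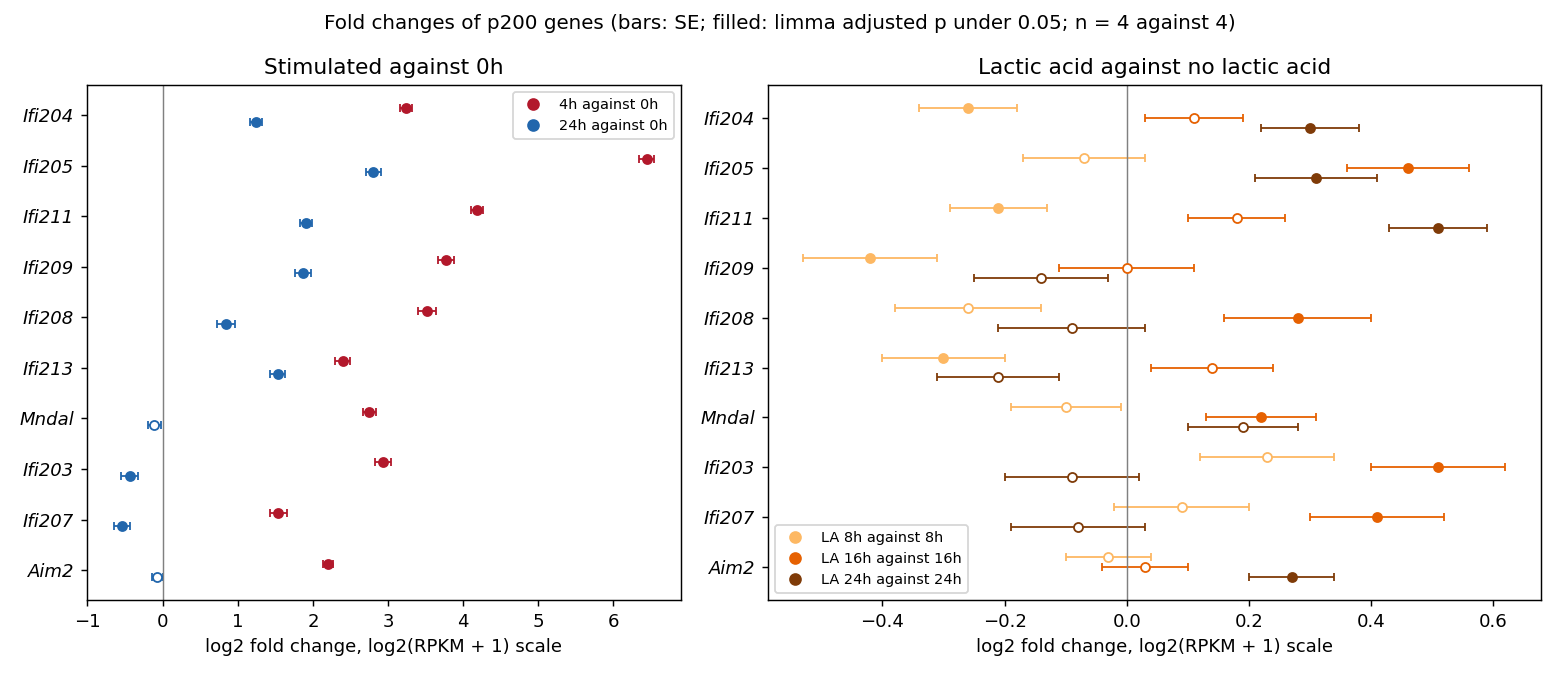
Log2 fold changes on the log2(RPKM + 1) scale with SE as bars for each p200 gene (n = 4 against 4), at 4h and 24h against 0h on the left, and with lactic acid against without it at 8, 16 and 24 h on the right; filled points passed limma at an adjusted p under 0.05. The left panel runs to 6.44 for Ifi205, while no lactic acid effect on the right exceeds 0.51 in either direction.

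At 8 h, after 4 h with lactic acid, 4 of 10 members were lower in LA 8h than in 8h libraries (Ifi204, Ifi209, Ifi211 and Ifi213), where 36% of all tested genes were lower. None was higher, where 32.1% of all tested genes were. The members' median log2 fold change was -0.16, against -0.02 over all tested genes. Ifi209 had 102, 98.8, 88.0 and 105 RPKM in LA 8h libraries, against 137, 116, 145 and 131 RPKM in 8h libraries. The groups did not overlap, and the log2 fold change was -0.42 ± 0.11 (SE, adjusted p = 0.00086 by limma). Ifi204 had 167, 169, 154 and 170 RPKM in LA 8h libraries, against 201, 171, 229 and 196 RPKM in 8h libraries. These groups were also apart, but by a narrow gap (-0.26 ± 0.08, adjusted p = 0.0054 by limma). Ifi213 (-0.30 ± 0.10) and Ifi211 (-0.21 ± 0.08) had overlapping groups. Ifi214, whose promoter was the most like that of Ifi209, had 1.02, 0.950, 0.883 and 0.945 RPKM in LA 8h libraries. It had 1.48, 1.21, 1.78 and 1.39 RPKM in 8h libraries (-0.33 ± 0.07, adjusted p = 0.00013 by limma).

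The 8 h calls of Ifi211 and Ifi204 rested on the processing. Under table scaling, Ifi211 (-0.13, adjusted p = 0.17) and Ifi204 (-0.18, adjusted p = 0.062) no longer passed. With a trend on gene length removed, Ifi211, the shortest member with 1785 exon bases, had 0.03 (adjusted p = 0.80). The call of Ifi211 was also lost without 8h replicate 3 (adjusted p = 0.12) or without LA 8h replicate 3 (0.095). Ifi203 went the other way, with 0.23 ± 0.11 (adjusted p = 0.071), and passed as higher with that scaling (adjusted p = 0.037), with only the groups compared in the fit (0.0049), or without replicate 3 of 8h (0.045) or of LA 8h (0.050).

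At 16 h, 5 members were higher with lactic acid (Ifi203, Ifi205, Ifi207, Ifi208 and Mndal), and none was lower; 30.2% of all tested genes were higher and 31% were lower. The members' median log2 fold change was 0.20, against -0.01 over all tested genes. Ifi203 had 14.7, 15.0, 15.4 and 12.9 RPKM in LA 16h libraries, against 9.03, 8.90, 9.80 and 11.9 RPKM in 16h libraries. Ifi205 had 19.0, 17.9, 19.5 and 16.0 RPKM in LA 16h libraries, against 10.7, 11.9, 14.1 and 15.0 RPKM in 16h libraries. In both genes every lactic acid library lay above every library without it, with log2 fold changes of 0.51 ± 0.11 and 0.46 ± 0.10 (SE, adjusted p = 0.00032 and 0.00015 by limma), in that order. Ifi207 followed with 0.41 ± 0.11 (adjusted p = 0.0017), with overlapping groups.

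Mndal (0.22 ± 0.09, adjusted p = 0.037) and Ifi208 (0.28 ± 0.12, adjusted p = 0.041) were close to the threshold. Mndal no longer passed without 16h replicate 1 or 2 or without LA 16h replicate 1, 2 or 3 (adjusted p between 0.062 and 0.18). Ifi208 no longer passed without any of these or without 16h replicate 3 (0.063 to 0.14), nor by edgeR on the recovered whole reads (0.055). The count of higher members ranged from 3 to 6 over fits that left out 1 library. Ifi211 (0.18 ± 0.08, adjusted p = 0.053) passed without 16h replicate 3 (0.016) or LA 16h replicate 4 (0.022).

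At 24 h, after 20 h with lactic acid, Aim2, Ifi204, Ifi205 and Ifi211 were higher with it and no member was lower, where 25.5% of all tested genes were higher and 21.7% lower. The members' median log2 fold change was 0.06, against 0.01 over all tested genes. Ifi211 had 49.8, 49.2, 48.8 and 47.7 RPKM in LA 24h libraries, against 37.7, 31.0, 33.5 and 34.3 RPKM in 24h libraries. The lactic acid libraries lay close together and above all the others, and the log2 fold change was 0.51 ± 0.08 (SE, adjusted p = 9.7e-06 by limma). Aim2 had 10.9, 11.9, 10.2 and 11.2 RPKM in LA 24h libraries, against 9.48, 9.75, 8.80 and 7.91 RPKM in 24h libraries. Again the groups did not overlap (0.27 ± 0.07, adjusted p = 0.0018 by limma), and Aim2 was at 9.28 ± 0.212 RPKM in LA 8h libraries and at 9.53 ± 0.892 RPKM in 8h libraries (SD, n = 4 each). Ifi204 had 81.3, 91.7, 83.7 and 90.8 RPKM in LA 24h libraries, against 72.8, 69.1, 67.3 and 72.4 RPKM in 24h libraries. These groups were apart as well (0.30 ± 0.08, adjusted p = 0.0034 by limma), while those of Ifi205 (0.31 ± 0.10, adjusted p = 0.0096 by limma) overlapped.

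The scaling of the libraries decided most of these calls. Under table scaling the median over all genes was -0.15 at LA 24h against 24h, and 18.3% of called genes were higher, against 54% as deposited. Of the members, Ifi211 (0.30) alone was then higher, and Ifi209 (-0.35) and Ifi213 (-0.36) were lower. Aim2 (0.08, adjusted p = 0.38), Ifi204 (0.09, adjusted p = 0.37) and Ifi205 (0.11, adjusted p = 0.36) no longer passed. Relative to the median of all genes under table scaling, Ifi211 lay 0.45 above it, Ifi205 0.26, Ifi204 0.24 and Aim2 0.23, while Ifi209 and Ifi213 had -0.20 and -0.21 relative to it. Leaving out 24h replicate 4 together with LA 24h replicate 1, the libraries that stood farthest from their groups, kept 4 members higher and added Mndal (0.25, adjusted p = 0.033), which also passed without LA 24h replicate 1 alone (0.020). Without 24h replicate 2, Ifi213 counted as lower (adjusted p = 0.035). With only the compared groups in the fit, Ifi205 did not pass (0.059).

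The effect of lactic acid itself differed between the times. It was higher at 24 h than at 8 h in 5 members (32.7% of all tested genes) and lower in none (29.7% of all tested genes). Ifi211 differed most, with -0.21 at 8 h and 0.51 at 24 h, a difference of 0.72 ± 0.12 (SE, adjusted p = 5.8e-06 by limma). Ifi204 had -0.26 at 8 h and 0.30 at 24 h, a difference of 0.56 ± 0.12 (adjusted p = 0.00012 by limma). These 2 differences still passed under table scaling (0.43 and 0.26). Those of Ifi205 (0.37), Aim2 (0.30) and Mndal (0.30) did not (0.09, 0.03 and 0.01), while the median of all genes lay at -0.20 and 26% of called genes were higher, against 52.4% as deposited. Under that scaling Ifi203 (-0.59) and Ifi207 (-0.46) passed in the other direction. The difference of Ifi205 was also lost without 8h replicate 3 (adjusted p = 0.054), and that of Mndal in most fits that left out 1 library. Without replicate 4 of 24h or of LA 24h, Ifi203 passed as lower (0.014 and 0.039), and without 8h replicate 2 or LA 24h replicate 1, Ifi209 passed as higher (0.049 and 0.023).

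Around the family, the partners of DNA sensing and of the inflammasome were read from a list of 23 genes, of which 22 were tested. At 4h against 0h, 18 of 22 were higher and 2 lower, with a median log2 fold change of 1.89. At 24h against 0h, 15 were higher and 4 lower (median 0.58). At LA 24h against 24h, 8 were higher and 5 lower (median 0.13). Of all tested genes, 42.5% were higher and 42.7% lower at 4h against 0h. The shares were 39.9% and 37.3% at 24h against 0h, and 25.5% and 21.7% at LA 24h against 24h. Il1b, the precursor of interleukin-1 beta that caspase-1 cleaves, averaged 2020 ± 54.9 RPKM at 4h and 0.628 ± 0.0831 RPKM at 0h (SD, n = 4 each; log2 fold change 10.28). Casp4, which in mice encodes the non-canonical inflammasome protease caspase-11, averaged 49.5 ± 4.68 RPKM at 4h and 3.72 ± 0.157 RPKM at 0h (3.42). Irf7, a driver of type I interferon genes, and Nlrp3, another inflammasome sensor, had 3.22 and 2.97. The 2 that fell, named after their values were seen, were Tmem173 (the STING gene), with 22.8 ± 0.361 RPKM at 4h and 42.9 ± 2.41 RPKM at 0h (-0.88), and Nlrc4, another inflammasome gene (-0.19).

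At 24h against 0h the largest changes of the list were Il1b (log2 fold change 4.84), Irf7 (3.89), the nucleic acid sensor Zbp1 (1.98) and the RNA helicase Dhx9 (-1.65). With lactic acid at 24 h they were Il1b, with 191 ± 86.8 RPKM in LA 24h libraries and 47.6 ± 15.6 RPKM in 24h libraries (1.93), Ninj1, which ruptures the membrane of dying cells (0.69), the kinase Ikbke (-0.58) and Dhx9 (-0.38). The direct partners of Aim2, named after their values were seen, did not have their highest means at 4h. Pycard averaged 15.4, 20.4, 27.2, 39.2 and 42.5 RPKM at 0, 4, 8, 16 and 24 h. Casp1 averaged 50.5, 319, 381, 137 and 102 RPKM at the same times, and its mean was highest at 8h, when Aim2 was back at 9.53 RPKM.

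Interferon signalling, a list of 15 genes that were all tested, had 14 higher and 1 lower at 4h against 0h, with a median log2 fold change of 1.56. At 24h against 0h, 13 were higher and 1 lower (0.90). At LA 24h against 24h, 6 were higher and 3 lower (0.00). Of all tested genes, 42.5% were higher and 42.7% lower at 4h against 0h. The shares were 39.9% and 37.3% at 24h against 0h, and 25.5% and 21.7% at LA 24h against 24h. The inhibitors of the pathway led at 4h, with Socs3 (8.14), Socs1 (5.45) and Usp18 (4.83), followed by the kinase Jak2 (3.53). The gene that fell, named after its value was seen, was Ifngr1, the ligand-binding chain of the IFNg receptor, with 31.5 ± 0.939 RPKM at 4h and 59.1 ± 0.891 RPKM at 0h (-0.89). At 24h, Socs3 (5.09), Socs1 (1.72), Usp18 (1.45) and the receptor chain Ifnar1 (1.22) led. With lactic acid at 24 h, Socs3 (0.42), Ifnar2 (0.38), Irf8 (0.31) and Irf9 (0.31) were highest. The medians over all tested genes were those given above for the same comparisons. Values of both lists are as deposited and were not read under table scaling. That scaling moved the median of all genes to -0.15 at LA 24h against 24h, so small changes there depend on it.

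Over the 32 libraries, which share their time course, the genes whose log2(RPKM + 1) pattern was most like that of Aim2 were Setdb2, Gm12185, Ncoa7, Mycl and Lsm14a (Pearson r of 0.974 to 0.986). Within the family the pattern nearest to Aim2 was that of Ifi207 (0.912) and the farthest that of Ifi213 (0.483). For the mean of the other 9 members the most alike genes were Mx2, Lyn, Apol9b, Jak2 and Gbp6 (0.981 to 0.991). The closest pairs of members were Ifi204 with Ifi211 (0.990) and Ifi211 with Ifi205 (0.987). These coefficients describe 1 time course, and related genes may share reads.

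The labelled cell type was checked against its markers. All 7 macrophage markers (Adgre1, Csf1r, Cd68, Lyz2, Itgam, Fcgr1 and Mertk) are in the table, with a summed level of 11614 to 12785 RPKM at 4h, 35479 to 47736 at 24h, 36615 to 51942 at LA 24h and 17716 to 20218 at 0h. Of 7 neutrophil markers, 4 are in it (S100a8, S100a9, Camp and Ltf), summing to 50.1 to 76.7 RPKM at 4h, 21.6 to 33.9 at 24h, 21.8 to 29.3 at LA 24h and 9.24 to 14.0 at 0h. The part of these lists in the members' changes was not tested. Of dendritic and lymphocyte markers, 1 each is in it (Xcr1 and Lck), and 4 of 4 stromal or endothelial ones. Each of these lists summed to at most 2.44 RPKM in the 4h, 24h, LA 24h and 0h libraries, and of 4 erythroid or mast cell markers none was analysed here. Reads in listed genes ran from 60.6 M to 103.9 M per library, and the members' own reads from 98 to 101216.

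The chromatin of the family was next compared between M1 cells after 24 h and M0 cells. The 10 genes lie within 682.2 kb (chr1:173349547-174031755, GRCm38), in the order Aim2, Ifi213, Ifi209, Ifi208, Ifi207, Ifi204, Mndal, Ifi211, Ifi203 and Ifi205. In this stretch the authors' peak lists held 14 H3K18la peaks in M1 cells and 4 in M0 cells, covering 21.2 kb and 7.3 kb. They held 27 H3K18ac peaks in M1 cells and 12 in M0 cells, covering 86.7 kb and 26.2 kb. The whole H3K18la list was shorter in M1 cells than in M0 cells (16139 and 21885 peaks), and the H3K18ac lists were of similar length (42237 and 41493). Of the 14 M1 H3K18la peaks, 3 overlapped an M0 H3K18la peak by at least 1 base, and all 14 overlapped an M1 H3K18ac peak. With 1 library per mark and state there is no replicate check and no test. The library held 141688 spike-in reads in M1 and 310066 in M0 for H3K18la, and 50470 in M1 and 52482 in M0 for H3K18ac. The part of this difference in the H3K18la peaks was not tested.

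**Figure D4:**
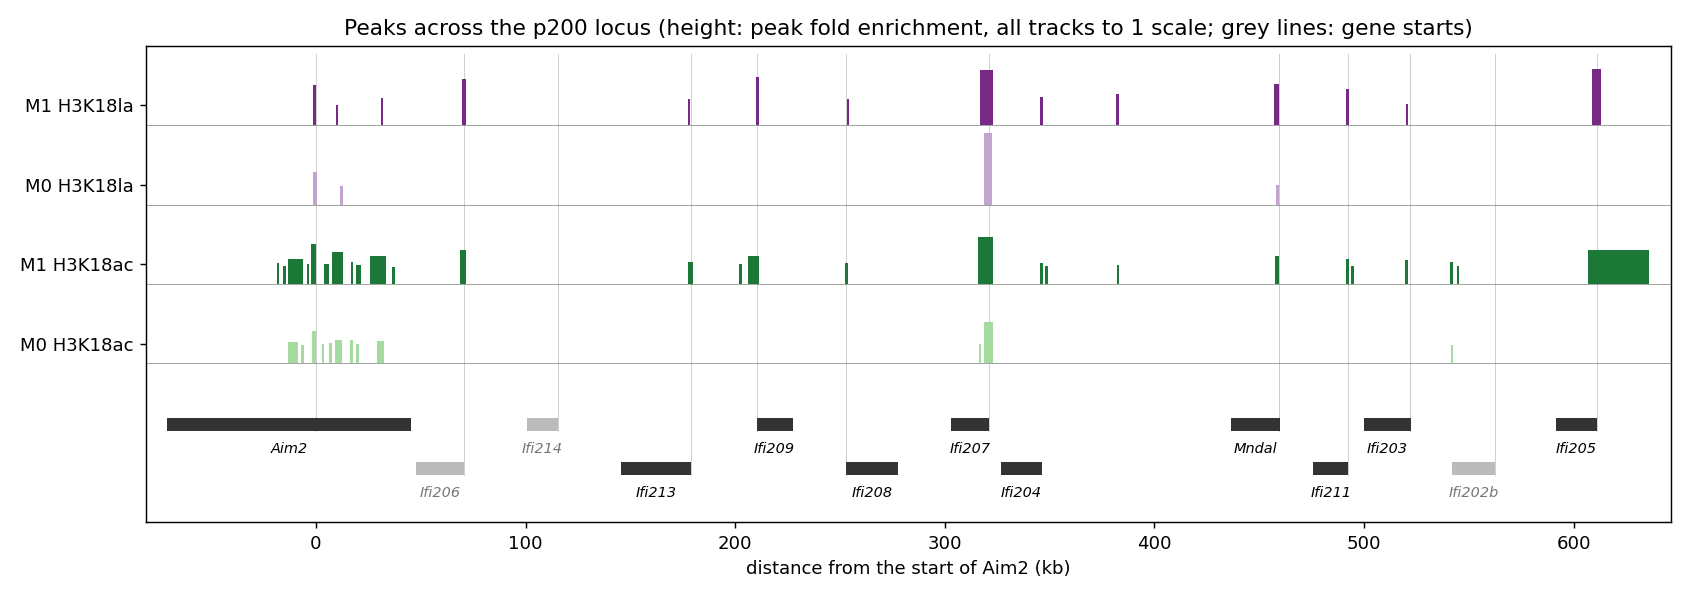
The authors' peaks across the p200 genes, drawn against distance from the start of Aim2 in kb, with peak height as each peak's fold enrichment (all tracks to 1 scale, from 0; narrow peaks are widened to stay visible), thin grey lines for gene starts, dark bars for the 10 genes and pale bars for other p200 genes. H3K18la has 14 peaks in M1 and 4 in M0, and those in M0 lie at Aim2, Ifi207 and Mndal.

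All 10 members had an H3K18la peak in or within 5 kb of the gene in M1 cells, and 4 of 10 in M0 cells. Of 10827 listed genes with a position, 80.8% had one in M1 cells and 94.0% in M0 cells. For H3K18ac the members were 10 in M1 cells and 3 in M0 cells, and the listed genes 94.5% in M1 cells and 96.0% in M0 cells. Aim2 spans 116494 bases, which leaves more room for peaks, and the M0 peaks counted for Ifi204 are those at the start of its neighbour Ifi207.

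At the starts themselves, 8 of 9 members with a start in the table had an M1 H3K18la peak within 1 kb, while 72.4% of 8771 listed genes with a start did. In M0 cells 3 of 9 did (Aim2, Ifi207 and Mndal), while 89.4% of listed genes did. For H3K18ac, 8 of 9 had a start peak in M1 cells (89% of listed genes) and 2 of 9 in M0 cells (92.2%), namely Aim2 and Ifi207. Thus 5 members had an H3K18la peak at the start in M1 cells and none in M0 cells (Ifi205, Ifi208, Ifi209, Ifi211 and Ifi213), as did 1.23% of listed genes. For H3K18ac these were 6 members, the same 5 and Mndal, and 1.49% of listed genes. The distance of 1 kb was chosen after seeing the data. Counting only start peaks with a -log10 q of at least 5, 6 members had H3K18la in M1 cells alone (0.969% of listed genes), since the M0 peak of Mndal was not counted. For H3K18ac 4 members did (3.49% of listed genes), since the M1 peaks of Ifi208 and Ifi213 were not counted. With all peaks within 1 kb counted, the 5 members with both marks at the start in M1 cells alone are 5 of the 6 whose RNA was still higher at 24h than at 0h. The other is Ifi204, which has no start in the table. This match depends on the distance and strength chosen. With a -log10 q of at least 5, the members with both marks in M1 cells alone were Ifi205, Ifi209, Ifi211 and Mndal, and Mndal was not higher at 24h. Ifi203, lower at 24h, had M1 peaks of both marks 1680 and 1652 bases from a start, and none within 5 kb in M0 cells. A relation to RNA was not tested, and the share of listed genes with both marks was not computed.

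The strongest of these peaks were at Ifi205 and Ifi209. The Ifi205 H3K18la peak in M1 cells (chr1:174029441-174033546) had a fold enrichment of 9.39 and a -log10 q of 27.8, and its fold was above that of 96.6% of the peaks in its list. It covers the Ifi205 motif stretch shown above. The H3K18ac peak there was 29188 bases wide (fold 5.57). The Ifi209 H3K18la peak (chr1:173630599-173631988, fold 7.91) covers the stretch with G1T. Ifi211 had a fold of 6.08, Ifi208 4.37 and Ifi213 4.36, against a median of 4.16 over the M1 H3K18la list. Their H3K18la peaks lay beside the motif stretch, 522, 154 and 166 bases away, in that order.

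Aim2 and Ifi207 carried both marks at the start in both states, and Mndal carried H3K18la in both states and H3K18ac in M1 cells alone. At Aim2 the H3K18la fold was 6.67 in the M1 list and 5.49 in the M0 list, and the H3K18ac fold was 6.66 in the M1 list and 5.34 in the M0 list. At Ifi207, the member with the highest RNA level before stimulation, the H3K18la fold was 9.08 in the M1 list and 11.93 in the M0 list, and the H3K18ac fold was 7.81 in the M1 list and 6.87 in the M0 list. At Mndal the H3K18la fold was 6.76 in the M1 list and 3.27 in the M0 list, with a -log10 q of 14.7 in the M1 list and 2.7 in the M0 list. These folds are the authors' own values per peak, not scaled to the spike-in, and the lists have medians of 4.16 (M1) and 5.41 (M0) for H3K18la, so the folds rank peaks within a list only. Ifi203 was the member with a start but no M1 peak within 1 kb of it. Its nearest M1 peaks lay just outside that distance, 1680 bases (H3K18la, fold 3.51) and 1652 bases (H3K18ac, fold 3.93) from a start. In M0 cells it had no peak of either mark within 5 kb. Ifi204 had an M1 H3K18la peak near the upper end of its coordinates (chr1:173766020-173766504, fold 4.75) and an H3K18ac peak over the same place (fold 3.50), and neither in M0 cells.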

How the data were processed

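The deposited RNA table gives RPKM scaled to the authors' effective library sizes. It lists genes that mostly passed the authors' own test, so percentages of genes called refer to such genes. Per the submitters' processing notes, HISAT2 2.1.0, featureCounts 1.5.0-p1, edgeR, Bowtie2 2.2.6 and MACS2 2.2.1 are among the tools named, without roles, with builds mm10 and GRCm38. The deposited peak lists hold for each peak a fold enrichment (ratio) and -log10 p-values and q-values, and a score. The deposited spike-in table holds counts of reads: 21.0 M (M1 H3K18la), 21.8 M (M0 H3K18la), 32.9 M (M1 H3K18ac) and 36.6 M (M0 H3K18ac) in mouse; those in the spike-in are given with the peaks. The authors' deposited log2 fold changes were not used.

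The count test planned where counts were given did not apply. Values were tested as log2(RPKM + 1) with limma 3.58.1 (R 4.3.3, trend), fitting the 8 group means to all 32 libraries at once (24 degrees of freedom left), and Benjamini-Hochberg adjusted p under 0.05 over 9942 genes. The test was tried on simulated data first. Whole reads behind the RPKM were recovered (100.0% of values within 0.05 of a whole number) and tested by edgeR 4.0.16 as an alternative. Peaks were assigned by position with pandas 2.3.3. Alternatives covered the pseudocount, filter, groups in the fit, scaling, gene length, replicate number, each library left out, and peak distance, strength and overlap.

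The members, gene lists and tests were chosen with earlier results of these data known. Genes named are the 10 members, the other listed gene of the cluster (Ifi214), up to 4 called genes per list with the largest change in 3 comparisons, and the 5 genes most like Aim2 and most like the mean of the other members. The cell type markers are named as well. Tmem173, Nlrc4, Ifngr1, Pycard and Casp1 fall outside this rule and were named after their values were seen.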

Additional observations from a re-analysis of the deposited data

Results flagged for a closer look

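Among 80 sets of 4 libraries (10 members in 8 groups), 3 held a library far from the others by Dixon's criterion (the gap to the nearest library over the group's range), and chance gives about 1 in 20. Ifi208 had 3.89 RPKM in LA 8h replicate 3 while the others lay at 4.93 to 5.04 (gap over range 0.899). Ifi207 had 20.2 RPKM in LA 24h replicate 1 while the others lay at 27.0 to 28.1 (0.857); without that library no call of Ifi207 at 24 h changed. Ifi207 had 116 RPKM in 4h replicate 2 and 118 in the others, a small gap within a narrow range (0.832).

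The effect of lactic acid differed between 24 h and 8 h, by the test of the difference itself, in 5 members. The differences on the log2 scale, as the effect at 24 h minus the effect at 8 h by limma, were 0.72 for Ifi211 (adjusted p = 5.8e-06), 0.56 for Ifi204 (0.00012), 0.37 for Ifi205 (0.018), 0.30 for Aim2 (0.0084) and 0.30 for Mndal (0.043). In Ifi211 and Ifi204 the effect was called lower at 8 h and higher at 24 h.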

How the results depend on the processing

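Of the members' values under alternatives, those at 4h against 0h, 8h against 4h and 24h against 0h kept every call when single libraries were left out. Under table scaling, 4 members instead of 2 were lower at 24h against 0h; with lactic acid 1 was higher and 2 lower at 8 h (0 and 4 as deposited), 1 higher and 2 lower at 24 h (4 and 0), and the difference of effects was higher in 2 and lower in 2 (5 and 0). With only the compared groups in the fit, 1 member was higher in LA 8h (Ifi203) and 5 were lower, Ifi208 among them. With the length trend removed, Ifi211 at LA 8h had 0.03 and was not called, and Ifi208 was called lower. Leaving out 1 library gave, with lactic acid, 0 to 1 higher and 3 to 5 lower members at 8 h, 3 to 6 higher at 16 h, 4 to 5 higher and 0 to 1 lower at 24 h, and 3 to 6 higher and 0 to 1 lower for the difference of effects. Leaving out both 24 h libraries that stood apart gave 1 lower for that difference. Leaving out 1 library gave 8 to 9 lower at 16h against 8h and 4 to 7 at 24h against 16h. Within 20 kb, 5 members had an M0 H3K18ac peak (3 within 5 kb) and 6 an M0 H3K18la peak (4 within 5 kb). With a -log10 q of at least 5, 9 had an M1 H3K18la peak and 8 an M1 H3K18ac peak within 5 kb (10 each with all peaks), and 3 each in M0. The shares of all listed genes at 20 kb, or within 5 kb at that q, were not computed. The cause was not tested.

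Replicate numbers did not pair libraries steadily. Same-numbered libraries correlated between -0.64 and 0.51 in their deviations from group means, and other-numbered ones between -0.67 and 0.67. At 24h against 0h the highest values were 0.51 for same-numbered and 0.26 for other-numbered libraries. There 5 libraries correlated best with their own number, against 0 to 3 in the other comparisons. With the replicate number as a block, 10 members were higher at 4h against 0h and 4 at LA 24h against 24h, and no call of a member changed. The lowest count of a member was 98 reads.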
